A study of Homo sapiens with 4 samples.

Results

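Long stitched H3K27ac domains of RD cells after SKP2 knockdown are described here. RD is an established cell line of fusion-negative rhabdomyosarcoma, a soft-tissue tumor of the skeletal muscle lineage. The cells carried a lentiviral shRNA to SKP2 (shSKP2) or a non-targeting shRNA (shSCR, control), and all were selected with puromycin. SKP2 is the F-box protein that brings substrates such as p27 to an SCF ubiquitin ligase. H3K27ac and MYOD were each profiled by ChIP-seq in both arms, which gave 4 libraries and 1 library per group. Each arm is therefore 1 transduced population of 1 line with 1 knockdown hairpin, and no spread between replicates was available for any difference. H3K27ac peaks of the shSKP2 list on chromosomes 1 to 22, X and Y were joined where they lay at most 12500 bp apart. Of the 22169 stitched regions, 593 were longer than 20 kb and are called long domains. They were thus selected on the H3K27ac peaks of the shSKP2 library, and their H3K27ac values are given as a description, without a test. MYOD peaks, gene positions and sequence were not used to choose them.

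H3K27ac, acetylation of lysine 27 on histone H3, marks active promoters and enhancers. Neighboring enhancers that carry the mark are commonly joined at the distance used here, and the longest or strongest of the joined regions in a cell type often lie at genes that define it. MYOD is the basic helix-loop-helix factor that starts the skeletal muscle program. It pairs with E proteins and binds E-boxes, with a preference for CAGCTG. A second common form is CAGGTG, read on the opposite strand as CACCTG. MYOD recruits acetyltransferases to such sites. Fusion-negative rhabdomyosarcoma cells express MYOD without completing differentiation.

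The 4 lists differ in ways that touch every count. The H3K27ac lists held 25356 peaks in shSCR and 38457 in shSKP2 cells, with a median width of 363 and 487 bp. The MYOD lists held 5814 and 8457 peaks. Read totals were not used here. The lowest local background of a list, recovered from its fold and p columns, served as the measure of depth. In fragments per position, it was 1.75 for shSCR and 1.61 for shSKP2 H3K27ac, and 1.48 for shSCR and 1.94 for shSKP2 MYOD. The deeper MYOD library by this measure was therefore the shSKP2 one. Its part in the MYOD counts below was not tested. Intervals in square brackets are 95% intervals that cover counting error only.

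Sequence under the strongest MYOD peaks shows what kind of site the domains hold. The windows below are from the plus strand of hg38, with 100 bp on either side of the summit of the highest-scoring shSKP2 MYOD peak, for the 5 domains with the most such peaks and the longest of those with 4. Copies of CAGCTG are in capitals. So are copies of CAGGTG and of its reverse form. At USE1 the highest-scoring peak touched a UTR and the peak of the next rank is shown. These lie at chr19:17246509-17246709 (USE1 domain), chr10:79123817-79124017 (ZMIZ1), chr1:156663291-156663491 (NES), chr7:2609761-2609961 (TTYH3), chr10:73906861-73907061 (PLAU) and chr1:39183986-39184186 (MACF1).
USE1: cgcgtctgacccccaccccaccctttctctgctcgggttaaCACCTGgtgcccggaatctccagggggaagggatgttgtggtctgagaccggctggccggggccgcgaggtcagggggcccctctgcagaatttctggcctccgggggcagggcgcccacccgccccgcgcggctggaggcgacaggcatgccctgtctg
ZMIZ1: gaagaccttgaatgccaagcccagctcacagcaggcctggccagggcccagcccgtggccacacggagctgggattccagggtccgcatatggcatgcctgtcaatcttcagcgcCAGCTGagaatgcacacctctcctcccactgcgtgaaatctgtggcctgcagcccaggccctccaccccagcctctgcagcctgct
NES: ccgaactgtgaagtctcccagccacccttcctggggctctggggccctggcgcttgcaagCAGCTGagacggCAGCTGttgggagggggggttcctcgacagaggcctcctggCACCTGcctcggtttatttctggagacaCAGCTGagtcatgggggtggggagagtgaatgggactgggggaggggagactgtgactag
TTYH3: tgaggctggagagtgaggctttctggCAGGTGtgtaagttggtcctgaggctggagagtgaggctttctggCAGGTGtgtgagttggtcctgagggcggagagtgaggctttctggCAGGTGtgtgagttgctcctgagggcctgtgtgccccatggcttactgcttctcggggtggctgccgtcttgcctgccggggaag
PLAU: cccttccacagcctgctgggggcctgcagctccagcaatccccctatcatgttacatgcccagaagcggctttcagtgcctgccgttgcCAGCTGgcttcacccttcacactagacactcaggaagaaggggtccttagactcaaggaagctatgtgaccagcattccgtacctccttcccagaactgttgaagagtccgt
MACF1: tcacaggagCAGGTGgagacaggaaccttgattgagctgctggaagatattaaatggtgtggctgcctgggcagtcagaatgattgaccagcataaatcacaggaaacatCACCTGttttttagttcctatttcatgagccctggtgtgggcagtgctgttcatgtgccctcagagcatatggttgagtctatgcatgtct

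Each of the 6 windows held at least 1 of the 3 hexamers, and each peak was shared with the shSCR MYOD list. They were picked by score and do not stand for the rest. Of all 629 shSKP2 MYOD peaks inside the long domains, 355 were shared, 63.4% held CAGCTG and 41.0% CAGGTG or CACCTG. In windows 2 kb away these hexamers were held by 9.31 and 22.8%. At USE1 the shSCR peak overlapped only the edge of the shSKP2 peak, and the summit of the shSCR peak lay outside the window. The NES window, 14.0 kb from the NES start site and outside any protein-coding gene body, held 3 copies of CAGCTG and 1 of CACCTG. Its peak stood 8.58-fold over local background in shSKP2 and 9.13-fold in shSCR cells, and no H3K27ac peak of either list touched the window. The TTYH3 window lay in the gene body of the neighboring IQCE and held 3 copies of CAGGTG. Its peak reached 10.3-fold in shSKP2 and 8.19-fold in shSCR cells. The MACF1 window lay inside the gene body, 20.6 kb from the canonical start site, with 9.07-fold in shSKP2 and 5.89-fold in shSCR cells. The ZMIZ1 window was within the ZMIZ1 gene body (8.24-fold and 6.97-fold, in the same order), the PLAU window 4.17 kb from the PLAU start (7.08-fold and 5.28-fold) and the USE1 window 0.690 kb from the start of NR2F6 (4.52-fold and 4.29-fold). None of the 6 summits fell in an exon of a canonical transcript. The windows at TTYH3, PLAU and MACF1 touched an H3K27ac peak of the shSKP2 list alone, that at USE1 peaks of both lists and that at ZMIZ1 neither.

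Windows from the MYOD1 and TNNT2 domains, chosen after their values were seen because both genes belong to the muscle program, are given in the same way. They lie at chr11:17687956-17688156 and chr1:201397205-201397405.
MYOD1: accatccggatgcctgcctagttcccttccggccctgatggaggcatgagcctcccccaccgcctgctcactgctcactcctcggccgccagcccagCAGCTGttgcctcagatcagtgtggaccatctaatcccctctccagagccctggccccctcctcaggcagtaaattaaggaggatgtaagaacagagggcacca
TNNT2: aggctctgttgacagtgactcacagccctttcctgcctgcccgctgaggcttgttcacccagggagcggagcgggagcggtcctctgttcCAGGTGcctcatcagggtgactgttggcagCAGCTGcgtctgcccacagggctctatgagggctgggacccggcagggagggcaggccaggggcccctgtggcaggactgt

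The MYOD1 window, 31.5 kb upstream of the MYOD1 start site, held a single CAGCTG under a peak of 9.30-fold in shSKP2 and 12.16-fold in shSCR cells. The TNNT2 window lay in the gene body of the neighboring LAD1, outside its canonical exons, and held 1 CAGCTG and 1 CAGGTG under a peak of 6.42-fold in shSKP2 and 6.24-fold in shSCR cells.

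CAGCTG at MYOD peaks inside the long domains differed from that at other MYOD peaks by less than the counting interval. Of the 629 shSKP2 MYOD peaks inside, 399 (63.4%) [59.6 to 67.1] held CAGCTG within 100 bp of the summit, against 60.5% [59.4 to 61.6] of the 7828 outside. The difference was 2.93 percentage points [-1.05 to 6.76]. The shSCR list gave 66.3% inside and 64.2% outside, a difference of 2.18 percentage points [-2.24 to 6.37]. CAGGTG or CACCTG was held by 41.0% of shSKP2 peaks inside and 45.5% outside, which was lower by 4.43 percentage points inside [-8.37 to -0.395]. For the shSCR list the values were 40.0% and 41.9%, and the interval of that difference included 0 (-1.89 percentage points [-6.28 to 2.64]). In windows placed 2 kb from the shSKP2 summits inside the domains, 9.31% held CAGCTG and 22.8% held CAGGTG or CACCTG. The GC content was 57.1% around the summits and 48.9% in the windows 2 kb away.

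Peaks shared by the MYOD lists carried CAGCTG more often than peaks of a single list. Inside the long domains the hexamer was held by 69.9% [64.9 to 74.4] of the 355 shSKP2 peaks shared with shSCR and by 55.1% [49.2 to 60.9] of the 274 peaks found after knockdown alone, and the intervals did not overlap. Among the shSCR peaks inside, 71.2% of the 358 shared and 54.4% of the 147 control-only peaks held it. Outside the long domains the shSKP2 values were alike, at 70.2% of shared and 53.1% of knockdown-only peaks. Shared peaks were also stronger, with a median fold inside of 7.12 against 4.41 for the shSKP2 list. Other letters were searched on both strands within 250 bp of H3K27ac summits. TGANTCA, the AP-1 motif, was held by 20.4% of shSKP2 H3K27ac peaks inside the long domains and 20.7% outside, and GGAATG or CATTCC, the core bound by TEAD factors, by 26.8% and 26.2%. CAGCTG was held by 30.6% inside and 28.7% outside, a difference of 1.85 percentage points [0.244 to 3.49]. At peaks farther than 2 kb from a protein-coding start site, TGANTCA was less frequent inside (23.7%) than outside (26.6%), by 2.92 percentage points [-4.61 to -1.15]. All the other distal differences in the shSKP2 list had intervals that included 0. In the shSCR list TGANTCA was more frequent inside over all peaks, by 2.09 percentage points [0.449 to 3.82], and its distal difference had an interval that included 0 (-0.75 percentage points [-2.81 to 1.42]). CAGCTG was more frequent inside in the shSCR list both over all peaks, by 2.20 percentage points [0.314 to 4.15], and at distal ones, by 2.38 [0.109 to 4.72]. In windows 2 kb from the summits inside, 14.0% held TGANTCA, 20.5% CAGCTG and 23.5% the TEAD core.

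The long domains were 20.008 to 82.855 kb in length, with a median of 24.9 kb. They joined 3 to 18 shSKP2 peaks each (median 5) and together spanned 16.6 Mb. Most of that span lay between peaks, since peaks filled 4.06 to 30.4% of a domain (median 13.0%) in the shSKP2 list and a median of 6.31% in the shSCR list. The fullest was the PLAU domain (chr10:73886849-73909817), 1.31 kb from the canonical start of the gene for urokinase, a protease of the cell surface. Peaks of the shSKP2 list covered 6.98 kb of its 22.969 kb, and those of the shSCR list 5.13 kb.

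Peaks of the shSKP2 list covered 2.21 Mb of the long domains and peaks of the shSCR list 1.14 Mb, a ratio of 1.93. Per domain the shSKP2 cover ran from 0.923 to 11.7 kb (median 3.51) and the shSCR cover from 0 to 6.66 kb (median 1.73). More sequence was covered after knockdown in 589 domains (99.3%), against a background of 98.5% of the 22169 stitched regions, so this share tells nothing particular to the long ones. Cover was at least 2 times that in shSCR cells in 268 of the 572 domains with control cover (46.9%), against a background of 42.9% over stitched regions of any length and 49.6% of the shorter ones that joined 2 or more peaks. The ratio was lower than in the 9117 shorter regions that joined 2 or more peaks (2.22), and lower again above 30 kb (1.86) than between 20 and 30 kb (1.98). The long domains held 9.29% of all shSKP2 cover and 9.88% of all shSCR cover. The shSKP2 cover can be divided by whether a peak overlapped an shSCR peak. Peaks that did not held 0.598 Mb, beside a net rise in cover of 1.06 Mb. In the shorter regions of 2 or more peaks these amounts were 4.43 and 7.19 Mb. Of the shSKP2 peaks inside, 1406 of 3383 (41.6%) overlapped no shSCR peak, against a background of 48.6% of the whole list, and made up 27.1% of the cover. In the shorter regions of 2 or more peaks these shares were 47.5% and 33.9%. At the 2227 shSCR peaks inside that did overlap a shSKP2 peak, the median width was 404 bp in shSCR and 791 bp in shSKP2 cells, and 85.9% were wider after knockdown, against 86.2% outside. Of the 2406 shSCR peaks inside, 179 (7.44%) had no shSKP2 counterpart. The background over the whole shSCR list was 13.6%, which includes peaks outside every stitched region, and the share was 3.501% in the shorter regions of 2 or more peaks. Such peaks can lie only in the stretches between shSKP2 peaks.

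**Figure D1:**
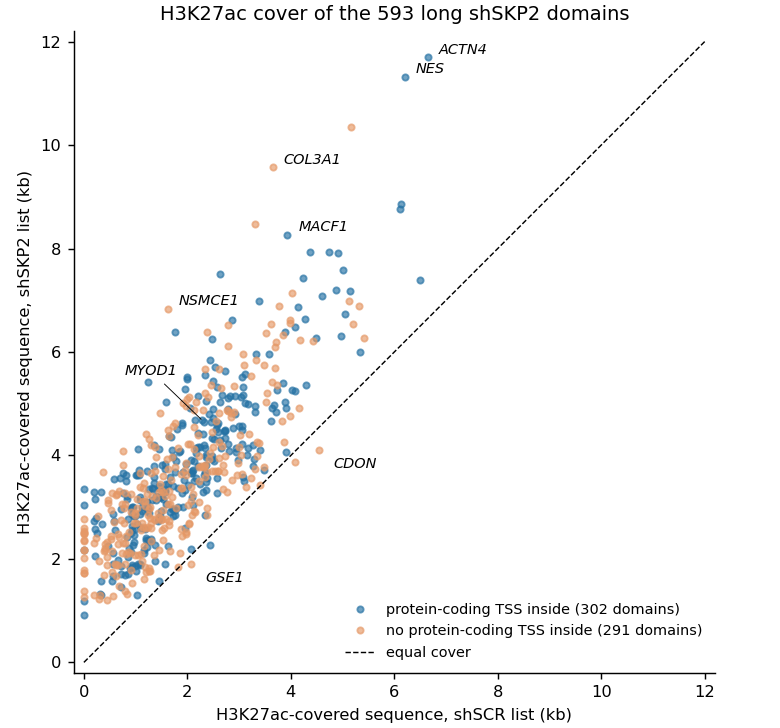
H3K27ac-covered sequence of each long shSKP2 domain in the shSCR list (x axis, kb) and the shSKP2 list (y axis, kb). Each point is 1 of 593 domains, blue with and orange without a protein-coding TSS inside, and the dashed line marks equal cover. 589 points lie above the line, with ACTN4 and NES at the top and CDON and GSE1 among the 4 below it.

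The most covered domain lay at ACTN4 (chr19:38647063-38703027), which encodes a non-muscle alpha-actinin that crosslinks actin. It held 13 shSKP2 peaks, 7 of them without an shSCR counterpart, and 10 shSCR peaks. At NES (chr1:156660473-156707199), which encodes the intermediate filament nestin of progenitor cells, 12 shSKP2 peaks covered 11.3 kb and 13 shSCR peaks 6.20 kb. More but narrower peaks were thus called there in shSCR cells. The 3 shSKP2 peaks without an shSCR counterpart held 0.958 kb of the 5.12 kb by which cover rose. The domain also took in the start of CRABP2, a retinoic acid carrier. The largest rise was in a domain with no gene start, 140 kb from the nearest, COL3A1 of a fibrillar collagen (chr2:188776242-188834012), where cover was 3.65 kb in shSCR and 9.57 kb in shSKP2 cells. Next came an NSMCE1 gene-body domain (chr16:27221773-27254130), with 1.62 kb in 3 shSCR peaks and 6.84 kb in 7 shSKP2 peaks, and a UQCC1 gene-body domain (chr20:35304907-35369452), with 5.17 and 10.4 kb. HMOX2, of the heme oxygenase family, had the largest ratio among the 10 largest rises (1.24 kb in shSCR, 5.43 kb in shSKP2 cells).

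Cover was lower after knockdown in 4 domains, by small amounts. Near CDON, a cell-surface receptor that promotes myogenesis, it fell from 4.54 to 4.11 kb, with 8 shSCR and 7 shSKP2 peaks and the start of the gene 60.4 kb away. The others were a COL15A1 gene-body domain (4.09 and 3.88 kb), a domain holding the starts of ZNF358, MCOLN1 and ENSG00000268614 (2.45 and 2.28 kb) and a GSE1 gene-body domain (2.07 and 1.91 kb). In all 4 the strongest H3K27ac peak had the higher fold in shSKP2 cells, as near CDON (4.54-fold in shSCR, 7.50-fold in shSKP2 cells).

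The same rule applied to the shSCR list gave 252 long domains, and 191 of the 593 shSKP2 domains (32.2%) [28.6 to 36.1] overlapped at least 1 of them. In turn 191 of the 252 (75.8%) overlapped a long shSKP2 domain. Shortening the longer list of each antibody to the length of the shorter, by keeping its highest-scoring peaks, left 275 long shSKP2 domains. A -log10 p of at least 10 left 204, and a stitching distance of 5 kb left a single domain. The parts of list length and peak score in the count of 593 were not tested apart. Most long shSKP2 domains did not join separate control regions. In 393 (66.3%) the shSCR list had 1 stitched region, in 170 (28.7%) it had 2, and in 9 it had 3 or 4. Peaks found in shSKP2 cells only made up every peak of 24 domains and none in 57.

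Domains that joined 3 or more control regions are given by name. A domain 130 kb from HGF, which encodes a growth factor that activates muscle satellite cells, joined 4 control regions, of which the longest was 1.89 kb (chr7:81590113-81639866). It held 6 shSCR peaks covering 2.78 kb and 10 shSKP2 peaks covering 6.53 kb. The KLRK1 domain (chr12:10361348-10435934), over genes of natural killer cell receptors, joined 3 control regions of at most 4.02 kb into 74.6 kb, with 8 shSCR and 12 shSKP2 peaks and no MYOD peak in either list. Others with 3 lay at USE1, VPS52, ZNF326 and JOSD2, all over gene starts, and at SPAG17, FN1 and HAS2, which held none. The FN1 domain was 228 kb from the start of that fibronectin gene. At MACF1, which encodes a crosslinker of microtubules and actin, the longest domain (chr1:39130710-39213564) joined 2 control regions, the longer of 34.5 kb.

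No shSCR peak was called in 21 long domains (3.54%), against 21.5% of the shorter regions that joined 2 or more peaks, which hold fewer peaks. The longest of the 21 was 47.7 kb from ATP2B1, which encodes a plasma membrane calcium pump (chr12:89756513-89794066, 37.6 kb, 8 peaks, 2.78 kb of cover). ATP2B1 was the nearest or named gene of 4 long domains, the most of any. A domain in the gene body of TEAD1, a factor that binds DNA for YAP (chr11:12765849-12800497), held 4 shSKP2 H3K27ac peaks and 2 shSKP2 MYOD peaks where the shSCR lists held none of either. The domain at the TEAD1 start (chr11:12673687-12695154) differed from it, with 5 H3K27ac peaks in both lists and no MYOD peak. The domain at TMCC2 (chr1:205229043-205260052) held 6 shSKP2 H3K27ac peaks of 3.28- to 4.93-fold, with 4 MYOD peaks in shSKP2 and 1 in shSCR cells. Others among the longest of the 21 were named by MED27, TAS1R1, CAND1, TCF7L1, GALNTL6 and NHSL2. A region without a called peak may still carry signal under the threshold of the caller.

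Members just inside the length limit did not stand apart from those just outside. The 5 shortest long domains were 20.008 to 20.05 kb in length (CXCL3, GBF1, SLC44A3, OSBPL7 and IL17RD), with 1.46 to 3.64 kb of shSKP2 cover and 0.590 to 1.88 kb of shSCR cover. The 5 next shorter regions were 19.95 to 19.984 kb (PDE4B, ETV1, NDFIP2, HIVEP3 and FYN), with 1.88 to 3.79 kb and 0.488 to 2.76 kb.

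Peaks inside the long domains had lower folds and lay on a higher local background than peaks elsewhere. The median fold of shSKP2 peaks was 4.05 inside and 4.58 outside, and that of shSCR peaks 3.63 and 4.12. Fold is a ratio to that same background, so the 2 measures are not independent. Median width and -log10 p were higher inside, at 516 bp and 11.8 against 484 bp and 11.1 for shSKP2 peaks. The median local background, relative to the lowest in its list, was 4.66 inside and 2.97 outside for shSKP2 and 4.28 and 2.82 for shSCR peaks. The highest domain medians were at NRG1 (26.7), RGS16 (22.2) and TAF8 (18.6). Such a level can differ with copy number or with signal between the peaks, and its part in the length of the domains was not tested.

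**Figure D2:**
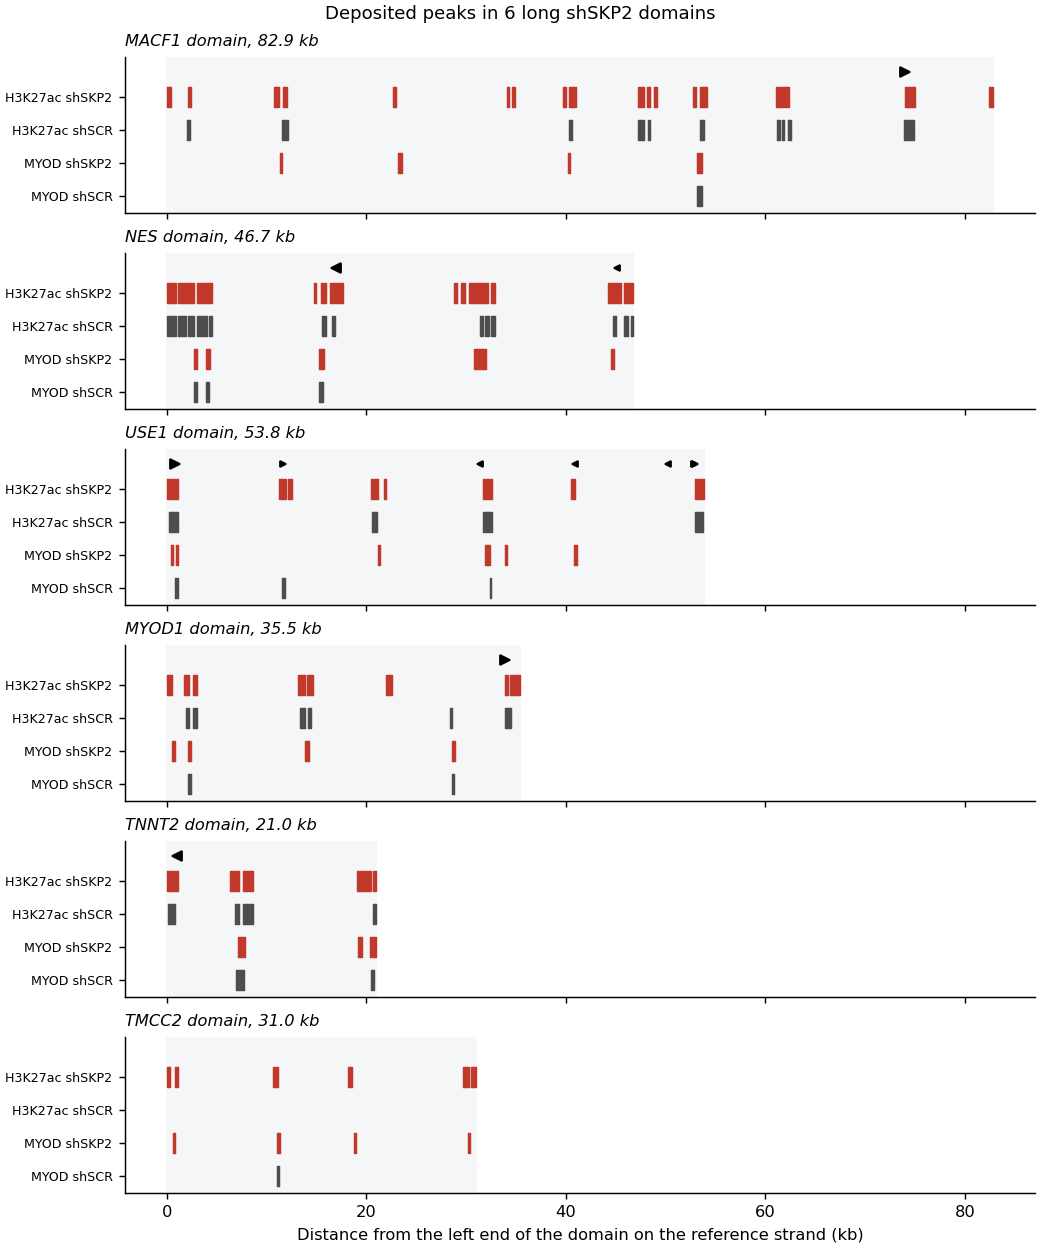
Deposited peaks of the 4 libraries (rows, red shSKP2 and gray shSCR) in 6 long domains. The x axis is the distance from the left end of the domain in kb, the shaded box is the domain and triangles are protein-coding TSSs pointing in the direction of transcription, the larger ones those of the named gene. The MACF1 domain has 17 shSKP2 and 10 shSCR H3K27ac peaks, and the TMCC2 domain has no shSCR H3K27ac peak.

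A MYOD peak lay in most of the long domains in both arms. The shSKP2 list placed at least 1 in 373 domains (62.9%) [58.9 to 66.7] and the shSCR list in 344 (58.0%) [54.0 to 61.9]. Of the shorter regions of 2 or more peaks, 28.3% and 23.7% held one, in the same order. The differences between long and shorter were 34.6 percentage points [30.5 to 38.5] and 34.3 [30.2 to 38.3]. Longer regions offer more sequence, and the share rose with every class of length in both lists, from 11.99% of single-peak regions to 72.5% of domains over 30 kb in the shSKP2 list. Per kb of domain the long ones held 0.640 times as many shSKP2 MYOD peaks as the shorter joined regions [0.587 to 0.697]. Per kb of shSKP2 H3K27ac cover they held 1.28 times as many [1.18 to 1.40], at 28.5 against 22.2 peaks per 100 kb. Such rates per kb of cover count every MYOD peak of a region, also those between H3K27ac peaks, where no cover is counted. They are therefore not densities of MYOD peaks within H3K27ac peaks. The shSCR MYOD list gave 0.629 times [0.572 to 0.693] and 1.26 times [1.15 to 1.39]. Per kb of shSCR cover the ratios were 1.11 [1.02 to 1.21] for the shSKP2 MYOD list and 1.10 [0.996 to 1.21] for the shSCR list. Whether MYOD peaks were denser in the long domains therefore depended on the measure of length.

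**Figure D3:**
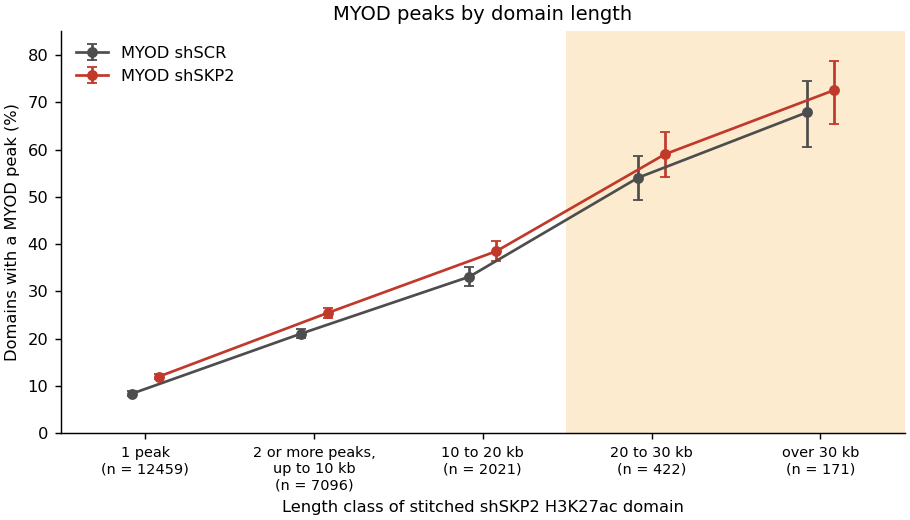
Share of stitched shSKP2 H3K27ac regions with a MYOD peak (y axis, percent) by length class (x axis), red for the shSKP2 and gray for the shSCR MYOD list. Error bars give 95% Wilson intervals (counting error only). The shaded classes are the long domains. The share rises from 11.99 to 72.5% (shSKP2) and from 8.38 to 67.8% (shSCR).

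The long domains held 629 MYOD peaks of the shSKP2 and 505 of the shSCR list, a ratio of 1.25 [1.11 to 1.40]. This was below the ratio of the whole lists (1.45 [1.41 to 1.504]) and near that of the shorter regions (1.29 [1.23 to 1.35]). Outside every stitched region it was 1.81 [1.71 to 1.92]. With the shSKP2 MYOD list shortened to the 5814 highest-scoring peaks the ratio turned, with 460 against 505 peaks (0.911 [0.801 to 1.04]). The share of each MYOD list that lay in the long domains was 7.44% for shSKP2 and 8.69% for shSCR cells, lower after knockdown by 1.25 percentage points [-2.17 to -0.342]. Of the 429 domains with a MYOD peak in either list, 177 (41.3%) had more shSKP2 than shSCR peaks, against a background of 38.9% over stitched regions of any length. In 84 the number was lower and in 168 equal. In domains with a gene start the ratio was 1.38 [1.17 to 1.62], from 353 and 256 peaks. In those without it was 1.11 [0.934 to 1.32], from 276 and 249 peaks, and the intervals of the 2 ratios overlapped.

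Sites bound by MYOD in either list, merged where they overlapped, numbered 780 in the long domains. Both lists held 359 (46.0%), the shSKP2 list alone 274 (35.1%) and the shSCR list alone 147 (18.8%). In shorter stitched regions the shares were 44.7%, 36.5% and 18.8%, and all 3 differences had intervals that included 0. An shSCR H3K27ac peak overlapped 438 of the 780 sites (56.2%) and an shSKP2 H3K27ac peak 606 (77.7%). In the shorter regions the values were 54.7% and 88.2%, where a region of a single peak is overlapped by construction. The remaining sites of the long domains lay in the stretches between H3K27ac peaks. Summits within 2 kb of a protein-coding start made up 20.2% of shSKP2 MYOD peaks inside and 22.7% outside.

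At least 3 shSKP2 MYOD peaks were found in 59 domains (9.95%) and at least 3 shSCR ones in 28 (4.72%). The shSKP2 MYOD list was also the longer, with 8457 against 5814 peaks. Of the 9117 shorter regions that joined 2 or more peaks, 28 and 15 held that many, in the same order. The most shSKP2 MYOD peaks in a long domain, 6 against 3 in shSCR cells, lay in the USE1 domain (chr19:17214519-17268366). It also holds the starts of 6 other genes including NR2F6, an orphan nuclear receptor. The summits of its 6 shSKP2 peaks were spread from just upstream of the USE1 start to 40.2 kb downstream, as the peak map shows. A domain in the gene body of ZMIZ1, a transcriptional coactivator, held 5 peaks in both lists (chr10:79101931-79152307). NES held 5 and 3, TTYH3 5 and 4, and PLAU 5 and 2, with shSKP2 first. The largest increases, of 3 peaks, were in 7 domains. In MACF1 and TMCC2 the number went from 1 in shSCR to 4 in shSKP2 cells, and in DBP, a circadian transcription factor, HMOX1, the inducible heme oxygenase, and AP3M2 from 0 to 3, beside USE1 and PLAU. The largest decreases were of 2 peaks. Among these domains, PID1, IL20RA, TNC, which encodes the matrix protein tenascin C, and MLIP, a muscle-enriched partner of lamin A, had 2 in shSCR and 0 in shSKP2 cells. NAIF1 and BMF, a proapoptotic BH3-only gene, had 3 and 1. H3K27ac cover was higher in the shSKP2 list in each of them, as at MLIP (3.69 kb in shSCR, 6.10 kb in shSKP2 cells) and near TNC (0.272 and 2.83 kb). IL20RA, TNC, AP3M2 and PLAU were added to this account after their values were seen.

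Protein-coding genes started inside 302 of the 593 domains (50.9%) [46.9 to 54.9], and 156 domains held 2 or more starts. Of the remainder, 179 overlapped a protein-coding gene body at least in part and 112 overlapped none. In the shorter joined regions 35.5% held a start. Per 100 kb of sequence the order turned, with 3.95 starts in the long and 8.62 in the shorter joined regions. In all, 656 of 20007 protein-coding genes started in a long shSKP2 domain, a background of 3.28%, against 260 in a long shSCR domain, and 230 in both. An H3K27ac peak lay over the start itself for 247 of the 656 in the shSKP2 list and for 103 in the shSCR list, with 147 covered after knockdown alone. These are 59.5% of the 247, beside a background of 56.9% of the starts of all protein-coding genes under an shSKP2 peak (2077 of 3649). Some domains held many gene starts. The RPLP2 domain (chr11:776793-844693) held 11 starts and rose from 5 to 13 peaks and from 2.63 to 7.51 kb of cover. A domain at H3C6 held 10 starts, nearly all of histone genes, and those at CRTC2, GANAB and MATCAP1 held 9 each.

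Genes of the muscle program were described from 2 lists chosen with results of these data known. Of 41 myogenic regulators, 4 started in a long shSKP2 domain (MYOD1, PAX3, SIX5 and MSC) and 1 in a long shSCR domain (MSC). Of 51 genes of the sarcomere and contraction, 6 did (ACTC1, TNNT1, TNNT2, CHRND, CHRNG and ATP2A1), against 1 in a long shSCR domain (TNNT2). These are 9.76 and 11.8%, beside 3.28% of all protein-coding genes, with no test. The count over all 20007 protein-coding genes was also higher in the shSKP2 domains, at 656 against 260 in long shSCR domains. A higher count in the shSKP2 domains is thus not particular to the 2 lists. The 10 genes lay in 9 domains, since CHRND and CHRNG, subunits of the muscle acetylcholine receptor, shared one. Each of the 9 had more H3K27ac cover in the shSKP2 list, as did 99.3% of all long domains. Each held a MYOD peak in both MYOD lists, as did 48.6% of all long domains. The number of MYOD peaks was higher in the shSKP2 list in 5 and equal in 4. It was higher in 109 of the 220 long domains with a gene start and a MYOD peak in either list (49.5%).

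At MYOD1 (chr11:17685693-17721154, 35.5 kb), 8 shSKP2 peaks covered 4.65 kb and 6 shSCR peaks 2.32 kb, in 2 control regions. About 20 kb upstream of the start site, 2 peaks lay side by side in both lists. Their widths were 523 and 335 bp in shSCR and 747 and 542 bp in shSKP2 cells, and their folds 4.42 and 4.48 against 6.44 and 7.43. A MYOD peak at this place, 19.8 kb upstream (chr11:17699541-17699916, 4.64-fold), was in the shSKP2 list alone, as was one 33.2 kb upstream (4.44-fold). The MYOD peaks 31.5 and 5.09 kb upstream were in both lists, with 9.30-fold in shSKP2 and 12.16-fold in shSCR cells at the first and 7.94-fold and 8.43-fold at the second. An H3K27ac peak of 598 bp, 11.8 kb upstream, was called after knockdown only. In turn an H3K27ac peak of 244 bp and 3.44-fold, 5.27 kb upstream and next to the shared MYOD peak, was called in shSCR cells only. No H3K27ac peak of either list covered the MYOD1 start itself, and the nearest began just downstream. There the shSCR peak was 4.61-fold and the shSKP2 peaks were 3.63- and 4.05-fold. Fold was also lower after knockdown at a shared H3K27ac peak 31.2 kb upstream (3.23 in shSCR, 3.01 in shSKP2 cells). It was higher at another, 31.7 kb upstream by its shSCR summit (2.63 and 3.18).

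At TNNT2 (chr1:201376691-201397653), which encodes a troponin T of heart and developing skeletal muscle, 5 shSKP2 peaks covered 4.80 kb and 4 shSCR peaks 2.42 kb. A MYOD peak (5.10-fold, 321 bp) and the H3K27ac peak around it (1396 bp, 4.11-fold) were in the shSKP2 lists alone, and the other MYOD peaks were shared. TNNT1, the slow skeletal troponin T, lay in the domain named by DNAAF3. That domain had 3.57 kb of cover in shSCR and 5.97 kb in shSKP2 cells, with 3 MYOD peaks in both. CHRND and CHRNG lay in the domain named by TIGD1, with 2.73 and 4.35 kb, from 5 and 4 peaks. ATP2A1, the calcium pump of fast fibers, lay in the domain named by SH2B1, with 1.53 and 3.16 kb. The domain of ACTC1, a sarcomeric actin, had 1.09 and 1.89 kb. For PAX3, a regulator of muscle progenitors, cover was 1.56 and 3.29 kb with 2 MYOD peaks in both lists. SIX5 lay in the domain named by DMPK, with 2.48 and 3.92 kb. An shSKP2 H3K27ac peak lay over the start itself at PAX3, TNNT1, TNNT2 and CHRND. None lay over the starts of MYOD1, SIX5, MSC, ACTC1, CHRNG and ATP2A1.

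Other gene lists were placed on the domains in the same way, also with no test. Of 52 genes of the actin cytoskeleton and adhesion, 6 lay in a long shSKP2 domain (ACTN4, MACF1, LMNA, MYOF, FHL3 and PARVA) and 4 in a long shSCR domain. LMNA, the gene of the nuclear lamins A and C, changed little in cover (5.34 kb in shSCR, 6.002 kb in shSKP2 cells), and PARVA, an adapter of focal adhesions, more (1.03 and 3.62 kb). Of 33 YAP-TEAD and AP-1 genes, 5 did (TEAD1, FOSB, FOSL1, JUNB and JUND) and 3 in a long shSCR domain. The FOSL1 domain had 2.78 and 5.12 kb and a MYOD peak in the shSKP2 list alone, and the JUND domain 2.35 and 5.04 kb, with 2 MYOD peaks in shSCR and 1 in shSKP2 cells. Of 39 genes of CDK inhibitors and the cell cycle, 3 did. They were CDK4, the replication helicase subunit MCM7 and CKS1B, the cofactor with which SKP2 recognizes p27. The domain of CKS1B, named by PBXIP1, had 5.15 kb of cover in shSCR and 7.18 kb in shSKP2 cells. None of 42 genes of growth factor pathways of rhabdomyosarcoma did. Of 8 markers of the skeletal muscle lineage, 1 did (MYOD1). None did of the 8 markers in each of 5 lists for other cell types. These were heart and smooth muscle, blood and endothelium, epithelium and liver, neurons and glia, and adipocytes, cartilage and bone. With 8 genes in each list and 3.28% of all protein-coding genes in a long domain, these counts cannot set 1 list apart from another.

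**Figure D4:**
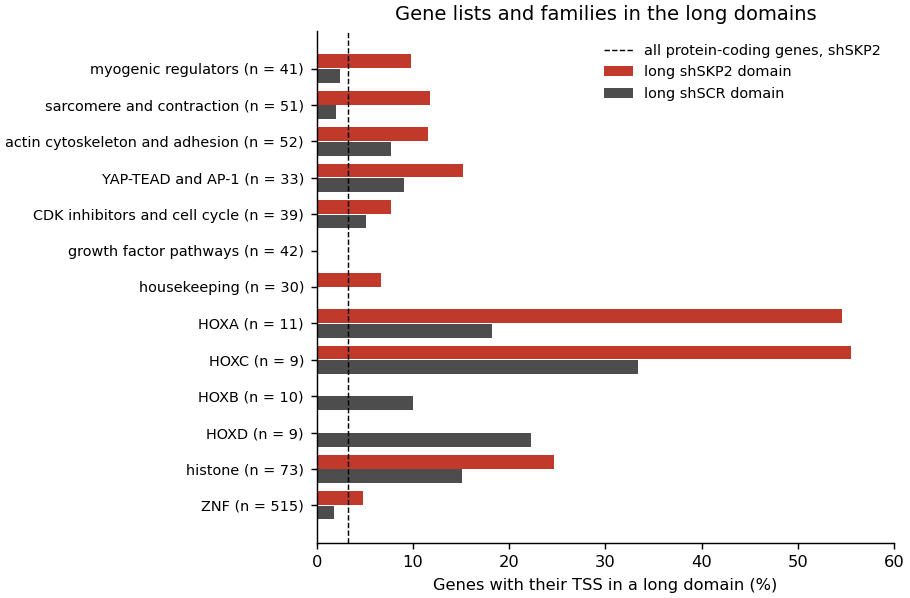
Share of the genes of each list or family (y axis) whose TSS lay in a long domain (x axis, percent), red for domains drawn on the shSKP2 and gray for those drawn on the shSCR H3K27ac list. The dashed line is the 3.28% of all protein-coding genes in a long shSKP2 domain. Myogenic and sarcomere lists stand at 9.76 and 11.8% in the shSKP2 domains with 1 gene each in the shSCR domains. No line is drawn for the shSCR domains, which held 260 of all 20007 protein-coding genes, against 656 in the shSKP2 domains.

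Clustered families followed the position of their clusters. Of 11 HOXA genes 6 and of 9 HOXC genes 5 started in long shSKP2 domains, and none of the HOXB or HOXD genes did, while 1 HOXB and 2 HOXD genes started in long shSCR domains. These homeobox genes set position along the body axis. The domain over HOXA7, HOXA9, HOXA10 and HOXA11 (chr7:27152779-27186371) had 1.05 kb of cover in 4 shSCR peaks and 4.13 kb in 7 shSKP2 peaks, with 0 and 2 MYOD peaks, the latter of 3.03- and 3.12-fold. The domain over HOXC9 to HOXC12 (chr12:53954884-54000697) was long in both arms and had 6.11 and 8.77 kb, with 11 and 10 peaks. Of 73 histone genes 18 did, in 3 domains with 3.90 and 4.07 kb, 4.14 and 6.87 kb, and 2.92 and 4.80 kb (shSCR first) and no MYOD peak in either list. Of 22 genes of the protocadherin gamma cluster 3 did, all in 1 domain, and of 515 ZNF genes 25 (4.85%). No PCDHA, PCDHB, keratin or olfactory receptor gene started in a long domain.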

How the data were processed

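Peak lists of 4 ChIP-seq libraries were used, grouped by sample title. Chromatin was fragmented with micrococcal nuclease and Drosophila chromatin was added as a spike-in, per the study's methods. Per the submitters' processing notes, reads were processed with BWA (0.7.17), deepTools and MACS3, and the builds named are GRCh38, hg38 and dm3. The methods describe peak calling for each library against an input and removal of regions in an exclusion list. They state a p threshold that equals a -log10 p of 5, while the lists begin just above 4. Whether spike-in scaling entered the calls is not stated in the sources used here, so the number and width of peaks are relative to each library. The deposited fold is a ratio of summit pileup to local background, and the -log10 p and q values deposited by the authors refer to that position. The score deposited by the authors is a rescaled -log10 p.

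Joining, cover and counts were computed with Python (3.11.15), pandas (2.3.3) and SciPy (1.17.1) and tested on simulated data, where 5000 of 5000 planted regions were recovered. Cover is sequence inside called peaks. Peaks were shared when they overlapped by at least 1 bp. The pileup and background were recovered from fold and p within a tolerance of 0.001. No peak ended beyond its chromosome in hg38. Start sites are those of canonical protein-coding transcripts in GENCODE release 44. A domain was named by the start inside it in or nearest to its highest-scoring shSKP2 H3K27ac peak, else by the gene body that overlaps it most, else by the nearest start. Named were the extremes of length, cover, change, control regions joined, MYOD peaks and gene starts, those at the length limit, and list genes. Domains of highest background were added after their values were seen. The members and lists were chosen with earlier results of these data known. No test between groups was possible with 1 library per group. Shares have Wilson intervals, their differences Newcombe intervals, and ratios of counts intervals for counting error. The alternatives were peak thresholds of 5 and 10, lists of equal length, 5 kb stitching, no promoter peaks, a length over 30 kb, and domains drawn on the merged or the control lists.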

Additional observations from a re-analysis of the deposited data

Results flagged for a closer look

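Each H3K27ac list held 1 peak on a contig outside the human chromosomes, which no comparison above used. It stood 21.7-fold over local background in the shSKP2 list, with a width of 222 bp, and 5.82-fold in the shSCR list, with a width of 193 bp. It was listed because the value after knockdown lay above that in the control. Neither MYOD list held a peak there. It is 1 peak in 1 library per arm, and the difference was not tested.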

How the results depend on the processing

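Of 8 results, most kept close to their values at a -log10 p of at least 5 (570 long domains) and in domains drawn on the merged lists (712). The number of long domains was 204 at a -log10 p of at least 10, 275 with lists of equal length, 318 without promoter peaks, 171 above 30 kb, 252 on the control list and 1 at 5 kb stitching. That single domain gave shares of 100 or 0% and is not read further. The ratio of covered sequence stayed above 1, at 1.30 to 2.34. More cover after knockdown was found in 97.8% of domains with equal lists, 96.2% on the merged lists and 83.3% on the control list. Overlap with a long control domain was 22.1% at 10, 54.2% with equal lists and 23.4% above 30 kb. On the control list it is 100% by construction. A MYOD peak of the shSKP2 list lay in 49.5% at 10, 56.4% with equal lists, 72.5% above 30 kb and 71.8% on the control list, and one of the shSCR list in 45.6, 62.9, 67.8 and 67.1%. The ratio of MYOD peaks turned with equal lists (0.892) and at 5 kb stitching (0.667, from 2 and 3 peaks). It also turned, in an alternative chosen after seeing the data, with the shSKP2 MYOD list alone shortened (0.911), which left 51.9% of domains with a MYOD peak. Fewer shSKP2 MYOD peaks enter by construction. A protein-coding start lay in 58.8% at 10, 56.7% above 30 kb, 46.4% on the control list and 5.98% without promoter peaks, which removes starts by construction. No paired analysis was possible because each group holds 1 library and the labels give no replicate numbers, and for the same reason no replicate could be left out. Depth was known only through the lowest local background.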
